A study of Mus musculus with 4 samples.

Results

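The sites described here are 992 regions of accessible chromatin that were called in all 4 ATAC-seq libraries of the study but whose width ranked higher in both DR-/- lists than in both DR+/+ lists. Overlapping peaks of the 4 peak lists, sharing 1 bp or more, were merged into 50231 union regions, of which 11850 lay on chromosomes 1 to 19 and held a peak of every list. These are called common regions. For each library the summed width of its peaks in a region was converted to a percentile among the common regions. A region was chosen when the lower of the 2 DR-/- percentiles exceeded the higher of the 2 DR+/+ percentiles by 10 points or more, a difference called the gap. The chosen regions made up 8.37% of the common regions, and the same rule in the other direction chose 975 (8.23%). Since measured widths chose the regions, their width differences are a description and were not tested.

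All 4 libraries came from J1 mouse embryonic stem cells of 129SV strain origin, grown feeder-free on gelatin with 15% serum and 1000 units/mL of leukemia inhibitory factor. The DR-/- population (2 libraries) was negative for both MERVL and Zscan4c, and the DR+/+ population (2 libraries) was positive for both. How the cells were marked and separated is not given in the sources used here. Nor do the labels say that replicates were separate cultures, so their spread may be technical. Peak lists hold no expression values, so the labels of the populations could not be checked against marker genes.

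MERVL is a family of endogenous retroviruses with long terminal repeats that act as promoters in the 2-cell embryo. Zscan4c is one of a cluster of related genes active at the same stage. A small share of embryonic stem cells in serum culture passes through a state in which both are expressed, while most cells express neither. In ATAC-seq the transposase Tn5 inserts sequencing adapters into DNA that is not wrapped in nucleosomes. A called peak marks a stretch where insertions exceed the local background, and its width depends on the length of the open stretch, on how many reads support its edges and on the threshold of the peak caller. The positions below are on the mm9 build, counted from 1, and the genes, repeats and sequence at these positions were not analysed here.

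The DR-/- lists were the shorter ones, with 21630 and 24432 peaks in replicates 1 and 2 against 40933 and 26866 in DR+/+ replicates 1 and 2. Peaks of common regions were wider in bp in the DR+/+ lists, with medians of 308 and 262 bp in replicates 1 and 2 against 227 and 245.5 bp in DR-/- replicates 1 and 2. A percentile removes this overall offset, so "relatively wider" means wider for its own list. At the middle of the lists, from the 45th to the 55th percentile, 10 points spanned 27 and 31.0 bp in DR-/- replicates 1 and 2 against 38 and 32 bp in DR+/+ replicates 1 and 2. Between the 80th and the 90th percentile the same 10 points spanned 76.1 to 112 bp over the 4 lists.

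The relatively wider regions were of moderate width in the DR-/- lists and narrow in the DR+/+ lists. Their median width was 266 bp in DR-/- replicate 1 and 285 bp in DR-/- replicate 2, and it was 240 bp in DR+/+ replicate 1 and 193.5 bp in DR+/+ replicate 2. Both DR-/- medians thus lay above both DR+/+ medians, the reverse of the order over all common regions. As percentiles the medians were 63.0 and 62.3 in DR-/- replicates 1 and 2 against 29.4 and 26.9 in DR+/+ replicates 1 and 2. Single widths ranged from 132 to 665 bp in DR-/- replicate 1, 143 to 658 bp in DR-/- replicate 2, 108 to 504 bp in DR+/+ replicate 1 and 115 to 449 bp in DR+/+ replicate 2. The lowest values in the DR+/+ lists, 108 and 115 bp, were the shortest peaks those lists contain.

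**Figure D1:**
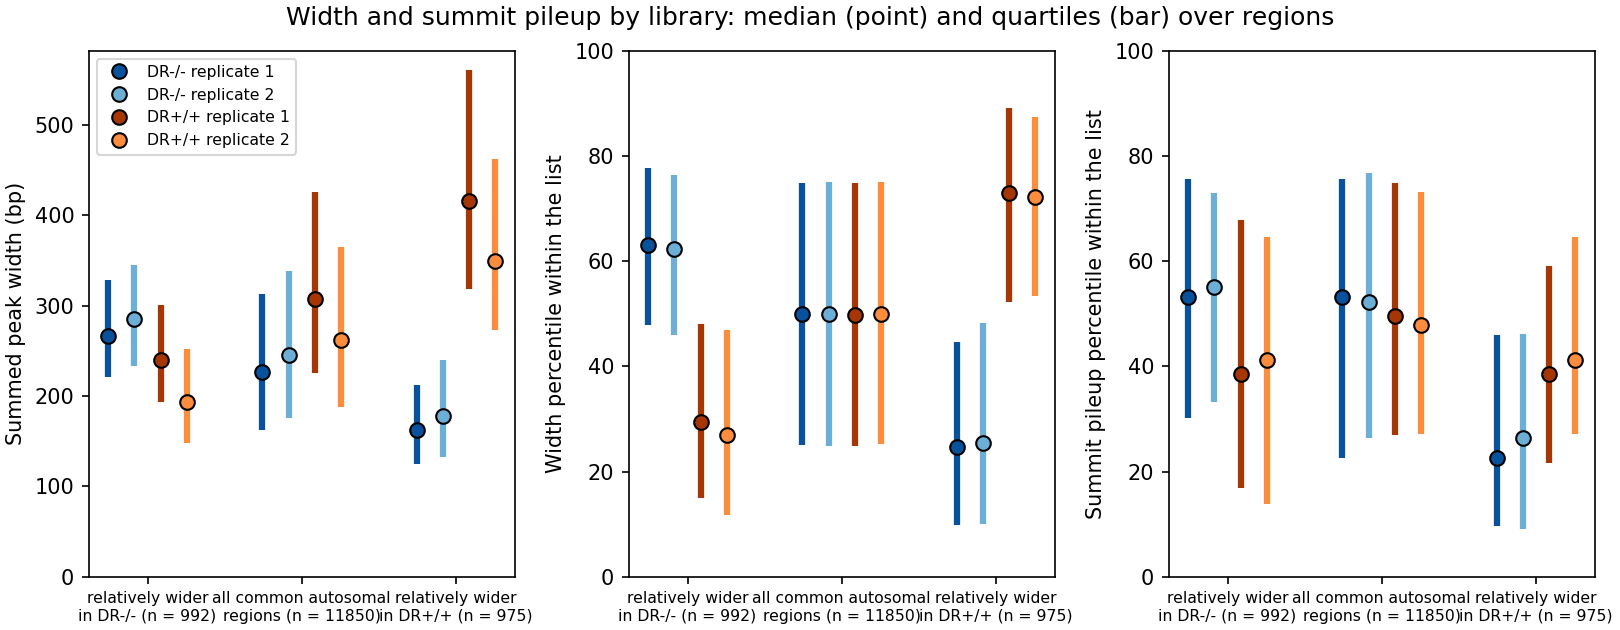
Summed peak width in bp (left), width percentile (middle) and summit pileup percentile (right) in each of the 4 libraries, for the 992 regions relatively wider in DR-/-, all 11850 common autosomal regions and the 975 regions relatively wider in DR+/+. Points are medians and bars span the quartiles over regions; in the left group the DR-/- medians of width (266 and 285 bp) lie above those of DR+/+ (240 and 193.5 bp).

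In bp the difference was modest. The mean of the 2 DR-/- widths exceeded the mean of the 2 DR+/+ widths by a median of 53 bp (quartiles 31.4 and 80 bp), and the median ratio of the means was 1.24 (quartiles 1.14 and 1.40). Over all common regions the median ratio was 0.855. Both DR-/- widths in bp exceeded both DR+/+ widths in 566 of the 992 regions, against 5.69% of all common regions. In the other 426 the bp widths of the populations overlapped and only the ranks were apart, and in 0 of the 992 were both DR-/- widths below both DR+/+ widths, against 38.3% of all common regions. Both DR-/- widths were at least 1.5 times both DR+/+ widths in 30 of the 992 regions (0.253% of all common regions), and these were all such regions among the 11850. The rule used this contrast, so the counts describe the size of what was chosen.

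The gap itself was mostly small, with a median of 16.5 points and quartiles of 12.8 and 22.9. It reached 20 points in 347 regions, 40 points in 33 and 60 points in 2. Among the 975 regions relatively wider in DR+/+, 500 reached 20 points, 149 reached 40 and 48 reached 60. The counts of the opposite directions were therefore near each other at 10 points and apart at larger gaps. With any 1 of the 4 libraries left out, fewer libraries had to be apart and 2245 to 2688 regions met the rule with DR-/- wider.

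The added width lay on either side of the site. Both DR-/- peaks started further left than both DR+/+ peaks in 347 of the 992 regions (8.2% of all common regions), and both ended further right in 365 (8.09% of all common regions). The extension was on 1 side only in 560 regions (14.8% of all common regions) and on both sides in 76 (0.726% of all common regions). In the remaining 356 the DR-/- peaks did not both extend further on either side (84.4% of all common regions, a class that also holds regions where the DR+/+ peaks extended further). The median extension was 25 bp on the left and 23.8 bp on the right, measured between the mean edges of the populations. Left and right are directions along the chromosome, not relative to a gene.

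The summits, the positions of highest signal, lay at like positions in the populations. Their median distance was 37 bp between the 2 DR-/- libraries, 32 bp between the 2 DR+/+ libraries, and 37 to 38 bp for the 4 pairs of libraries from different populations. Summits of different populations were thus about as close as summits of replicates. The same held over all common regions, with medians of 37 bp (DR-/-), 36 bp (DR+/+) and 35 to 39 bp between populations. In 732 regions (73.8%) every summit lay within the called extent of every list, against 70.5% of all common regions and 41.2% of those relatively wider in DR+/+.

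**Figure D2:**
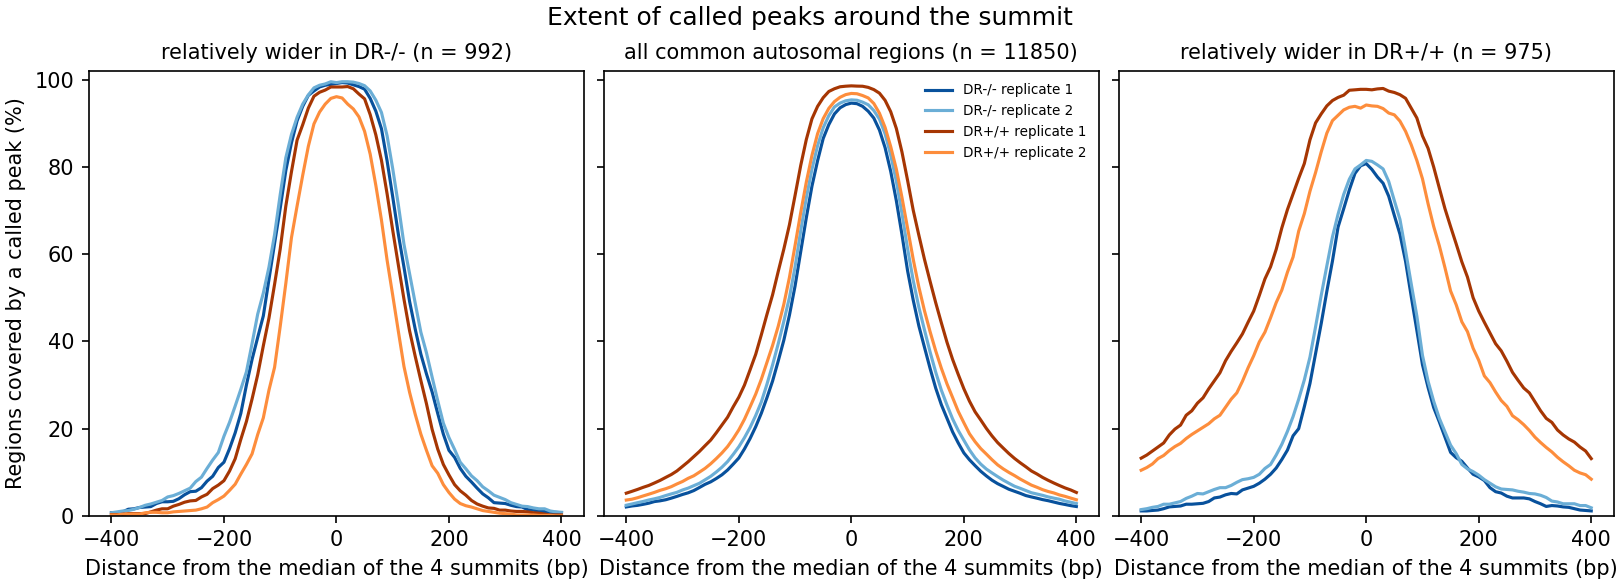
Share of regions covered by a called peak (%) against the distance in bp from the median of the 4 summits, 1 line per library, for regions relatively wider in DR-/- (left), all common autosomal regions (middle) and regions relatively wider in DR+/+ (right). At 150 bp to the right of the summit the left panel shows 37.1% and 42.1% in DR-/- replicates 1 and 2 against 31.1% and 18.8% in DR+/+ replicates 1 and 2, whereas the middle panel shows 29.3% and 33.0% against 48.9% and 37.8%.

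The wider extent rarely came from additional separate peaks. A single peak in every list made up 917 of the 992 regions (92.4%), against 84.2% of all common regions and 66.8% of the regions relatively wider in DR+/+. A second peak in at least 1 DR-/- list, with 1 peak in each DR+/+ list, was found in 46 regions (4.64%, against 5.96% of all common regions). In 6 regions both DR-/- lists had 2 or more peaks where both DR+/+ lists had 1 (0.605%, against 1.05% of all common regions and 0.821% of those relatively wider in DR+/+). Of these 6, the region with the largest gap was chr2:112079486-112080086, picked here after its values were seen, with summed widths of 505 and 366 bp in DR-/- replicates 1 and 2 against 184 and 235 bp in DR+/+ replicates 1 and 2. As merged sites the regions had a median length of 323 bp (quartiles 272.8 and 399), against 366 bp for all common regions and 465 bp for those relatively wider in DR+/+. The merged length comes from the same peaks whose widths chose the regions, so it is a description and no separate result.

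By percentile gap, 12 regions stood first. The first of them, chr9:71075031-71075388, was called over 346 and 324 bp in DR-/- replicates 1 and 2 against over 152 and 125 bp in DR+/+ replicates 1 and 2. Its gap was 66.5 points and its mean widths were 335 ± 15.6 bp in DR-/- and 138.5 ± 19.1 bp in DR+/+ (SD, n = 2 each). Both DR-/- peaks reached at least 69 bp further left and 91 bp further right than either DR+/+ peak, so the site was wider on both sides. Its summit pileup, the number of reads stacked at the summit, was 21 and 16 in DR-/- replicates 1 and 2 against 15 and 12 in DR+/+ replicates 1 and 2.

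The second region, chr2:61241201-61241533, measured 310 and 296 bp in DR-/- replicates 1 and 2 against 141 and 125 bp in DR+/+ replicates 1 and 2. Its summit pileups were 18 and 15 reads in DR-/- replicates 1 and 2 against 18 and 14 reads in DR+/+ replicates 1 and 2. The widths of the populations did not overlap there, while the summit pileups did. The 2 DR+/+ peaks of this region covered different parts of it, at 61241358 to 61241498 in replicate 1 and 61241223 to 61241347 in replicate 2. The peak of DR-/- replicate 1, at 61241201 to 61241510, spanned both parts.

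The third, chr5:126069650-126070023, measured 294 and 325 bp in DR-/- replicates 1 and 2 against 181 and 150 bp in DR+/+ replicates 1 and 2, with 19 and 24 against 14 and 14 reads at the summit. The fourth, chr16:77013739-77014213, measured 397 and 396 bp in DR-/- replicates 1 and 2 (1 and 2 peaks) and 152 and 198 bp in DR+/+ replicates 1 and 2. Here the DR-/- peaks extended at least 228 bp further right, while the summit was higher in DR+/+ replicate 1 (29 reads) than in DR-/- replicates 1 and 2 (15 and 19 reads) or DR+/+ replicate 2 (18 reads). The sixth, chr4:3501756-3502168, had the same combination, with 286 and 413 bp in DR-/- replicates 1 and 2 against 200 and 152 bp in DR+/+ replicates 1 and 2, but 14 and 21 against 30 and 16 reads at the summit. When peaks up to 500 bp apart were merged, the gap fell from 58.0 to 30.8 points at the third and from 56.2 to 17.5 points at the fourth. It fell from 51.4 to 5.54 points at the sixth, which was then no longer chosen, and rose from 51.8 to 67.9 points at the fifth. Wider called extent and a higher summit therefore did not always go together.

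The seventh, chr13:9308169-9308487, measured 305 and 266 bp in DR-/- replicates 1 and 2 against 120 and 127 bp in DR+/+ replicates 1 and 2. Its peaks were weak in both DR+/+ lists, with 3.69-fold and 3.46-fold enrichment over local background, and somewhat stronger in the DR-/- lists, with 4.98-fold and 4.88-fold. These fold values are the authors' own per peak. The ninth, chr10:128174532-128174849, had the closest DR-/- replicates after the fourth, with 314 and 318 bp, against 210 and 132 bp in DR+/+ replicates 1 and 2. All 4 of its summits lay within 8 bp, and the DR-/- peaks ended at least 86 bp further right.

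The rest of the 12 were chr11:87841209-87841534, chr4:8615253-8615677, chr12:106560457-106560757, chr14:25398653-25398974 and chr5:136132949-136133364. Over all 12, the ratio of mean widths ranged from 1.71 (chr12:106560457-106560757) to 2.42 (chr9:71075031-71075388), and no DR+/+ width exceeded either DR-/- width of its region. Their summits held 14 to 29 reads in the DR-/- libraries and 11 to 30 in the DR+/+ libraries. These are small counts, and the lists give no error for a single width.

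**Figure D3:**
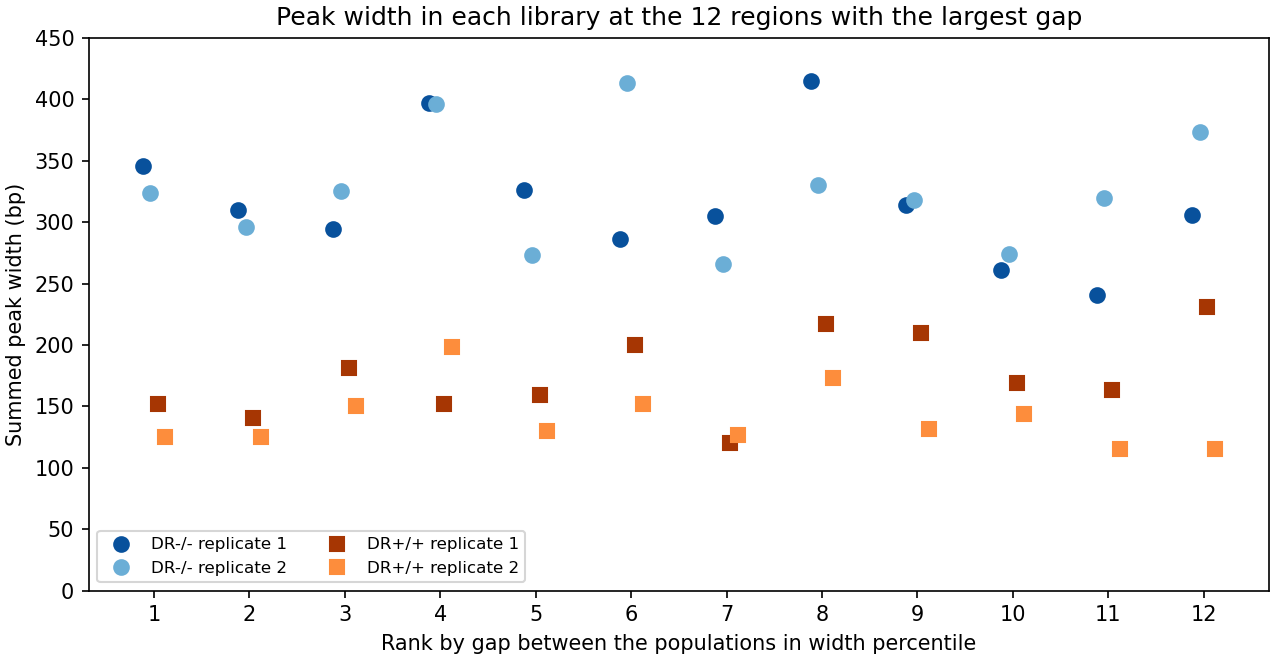
Summed peak width in bp in each library (circles, DR-/-; squares, DR+/+) at the 12 regions with the largest gap, ordered by the gap. At every one of the 12 both circles lie above both squares, and the DR-/- values run from 241 bp to 415 bp and the DR+/+ values from 115 bp to 231 bp.

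At the threshold the populations were hardly apart. Just inside it, chr5:89633101-89633479 measured 353 and 289 bp in DR-/- replicates 1 and 2 against 272 and 273 bp in DR+/+ replicates 1 and 2, with a gap of 10.0 points. Also just inside, chr16:23020725-23020954 measured 171 and 205 bp against 161 and 168 bp, so that the nearest libraries of the populations were almost equal. Just outside, with gaps of 9.98 points, chr13:23461002-23461236 measured 204 and 228 bp against 205 and 207 bp and chr7:133902914-133903108 measured 141 and 158 bp against 144 and 129 bp, each in the order DR-/- replicates 1 and 2, DR+/+ replicates 1 and 2.

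The summit signal ranked higher in DR-/- in part of the regions. Fold enrichment percentiles of both DR-/- libraries lay above those of both DR+/+ libraries in 299 of the 992 regions (30.1%, 95% Wilson interval 27.4 to 33.1%), against 18.8% of all common regions. They lay below in 114 regions (11.5%), against 18.3% of all common regions. For the summit pileup percentile, both DR-/- libraries were above both DR+/+ libraries in 375 regions (37.8%), against 20.7% of all common regions, and below in 92 regions (9.27%), against 21.2%. Most of the regions, by either measure, thus had summit ranks that overlapped between the populations. Width and summit signal come from the same peaks and the same contrast, so these shares were not tested.

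In reads, the summits were of ordinary height. The median pileup was 18 and 20.5 reads in DR-/- replicates 1 and 2 against 21 and 18 in DR+/+ replicates 1 and 2, against 18, 20, 23 and 19 over all common regions in the same order. Both DR-/- pileups exceeded both DR+/+ pileups in 141 regions (4.89% of all common regions) and were lower than both in 162 (34.2% of all common regions). Read depth is not stated, and the reads are not normalised between lists. The median local background at these summits was 2.21 and 2.51 reads in DR-/- replicates 1 and 2 against 2.61 and 2.45 reads in DR+/+ replicates 1 and 2. Over all common regions it was 2.25, 2.54, 2.76 and 2.60 reads in the same order, so the background under the chosen regions was close to that of common regions in each list.

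The members were found at all widths and made up smaller shares at the extremes. By the mean percentile over the 4 lists, they made up 5.08% of the 1438 common regions up to the 20th percentile, 10.2% from there to the 40th, 11.2% to the 60th, 8.89% to the 80th and 2.13% of the 1741 above. Regions relatively wider in DR+/+ also had their lowest shares at the ends, with 3.69% up to the 20th percentile and 3.16% above the 80th. The mean percentile uses the same ranks as the rule, and ranks near either end leave less room for a gap. The smaller shares there therefore cannot be read as a property of the members. The longest member, picked after its values were seen, was chr9:123842901-123843761 at 861 bp, with summed widths of 561 and 485 bp in DR-/- replicates 1 and 2 against 258 and 317 bp in DR+/+ replicates 1 and 2.

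Whether a relative width recurs in libraries that did not choose the regions was examined by choosing in 1 pair of libraries and reading the other pair. All common regions already held a peak of every list. The 992 members pass in both pairs by their rule, so the reading describes relative width among common regions and does not check the members. In the replicate 1 libraries, 4191 common regions (35.4%) ranked at least 10 points wider in DR-/- than in DR+/+. Of these, 36.5% (95% Wilson interval 35.0 to 38.0%) were at least 10 points wider in DR-/- in the replicate 2 libraries as well, compared with 30.6% of all common regions. Another 22.8% were at least 10 points wider in DR+/+ there, compared with 28.6% of all. The median difference was 21.3 points in the libraries that chose the regions and 3.34 points in those that did not, where it was 0.755 points over all common regions.

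The reverse choice counts the same 1529 regions, those that passed in both pairs, so at 10 points it is not a second check. Of the 3631 regions (30.6% of all) at least 10 points wider in DR-/- in the replicate 2 libraries, 42.1% (40.5 to 43.7%) passed in the replicate 1 libraries, compared with 35.4% of all common regions. A further 25.7% were at least 10 points wider in DR+/+ there, compared with 28.3% of all. The median difference went from 22.6 to 5.30 points, against 2.73 points over all. Of the 527 regions at least 40 points wider in DR-/- in the replicate 1 libraries, 46.1% passed in the other pair, and of the 650 such regions in the replicate 2 libraries 42.0% did. In the same order, 26.8% and 28.6% were at least 10 points wider in DR+/+ in the other pair. Over all common regions these shares were 28.6% and 28.3%, so reversals were about as frequent as elsewhere. Relative width therefore recurred more often than over all common regions, but most regions chosen in 1 pair did not pass in the other. At 10 points, an excess with 1 pair choosing implies an excess with the other. Recurrence was not particular to DR-/-. Regions at least 10 points wider in DR+/+ recurred in 40.6% and 40.1% with replicates 1 and 2 choosing, the same 1361 regions both times. Over all common regions these shares were 28.6% and 28.3%, a larger margin than with DR-/- wider. The intervals cover counting error only, regions are not replicates, and no test was made.

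**Figure D4:**
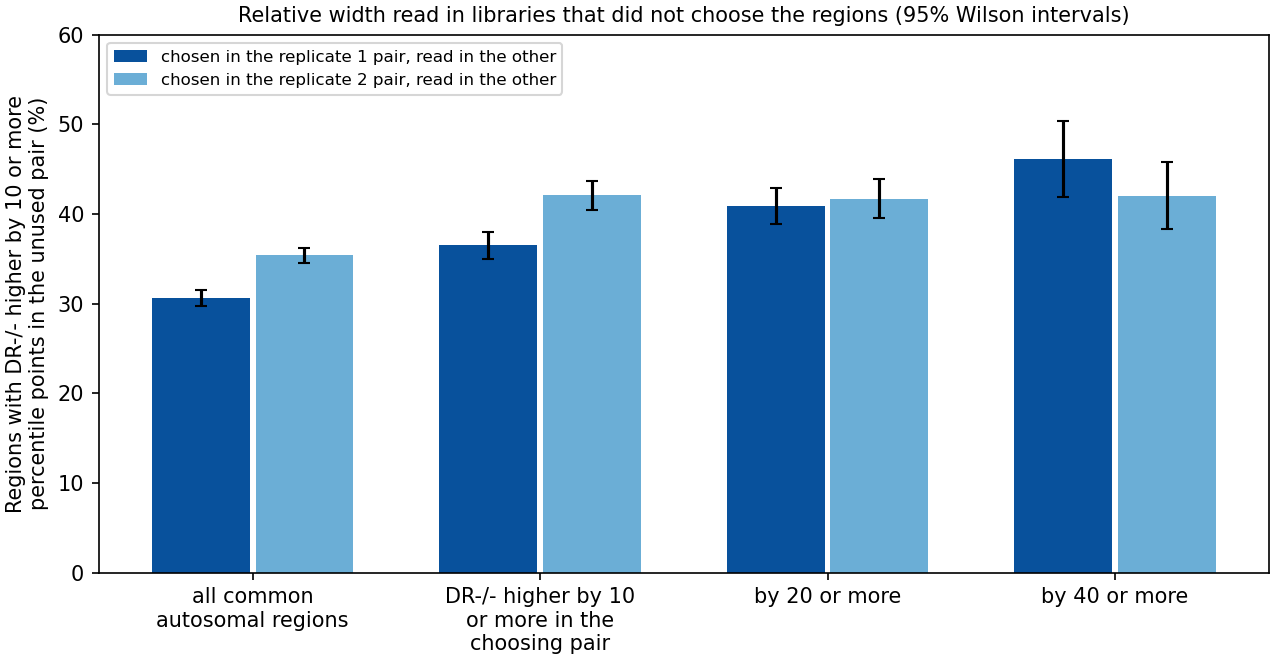
Share of regions (%) whose width ranked at least 10 percentile points higher in DR-/- in the pair of libraries not used to choose them, for all common regions and for regions chosen at differences of at least 10, 20 and 40 points in the other pair. Bars carry 95% Wilson intervals; the chosen sets reach 36.5 to 46.1%, above the 30.6% and 35.4% of all common regions.

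The widths of single regions also varied between replicates. The gap is a stricter measure, the smallest difference of any DR-/- from any DR+/+ library, with a median of -12.0 points over all common regions. It is therefore not directly comparable with the differences below. The median absolute difference in width percentile was 12.7 points between the DR-/- libraries and 12.1 points between the DR+/+ libraries, and 13.3 to 14.6 points between libraries of different populations. Over the 11850 regions, Spearman's rho of the widths was 0.643 between the DR-/- libraries, 0.706 between the DR+/+ libraries and 0.582 to 0.622 between populations. These correlations are across regions, which share library depth, and are given as a description. With 2 against 2 libraries an exact two-sided permutation test cannot go below p = 0.33, so no single region could pass 0.05 in it.

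Along the genome the regions were spread over all 19 autosomes. The share of common regions chosen ranged from 6.23% on chromosome 7 (51 of 819, 95% Wilson interval 4.77 to 8.10%) to 11% on chromosome 16 (50 of 453, 8.47 to 14.3%), around 8.37% overall. These shares were not tested. On chromosome 16 the regions relatively wider in DR+/+ made up 7.73%, and on chromosome 7 they made up 7.20%.

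The surroundings mostly resembled those of common regions. The median distance to the nearest other common region was 40.3 kb (quartiles 15.3 and 98.9 kb), against 45.5 kb for all common regions and 61.5 kb for those relatively wider in DR+/+. The nearest common region was itself a member in 78 of the 992 (7.86%), against 8.47% over all common regions, so the nearest neighbour of a member was a member about as often as elsewhere. A region called in both DR-/- lists and in neither DR+/+ list, of which the series holds 691, lay within 10 kb of 19 members (1.92%). The corresponding share was 1.11% of all common regions and 1.13% of those relatively wider in DR+/+. The median distance to the nearest such region was 955 kb for members, 1120 kb for all common regions and 1490 kb for those relatively wider in DR+/+. These differences were not tested. Regions called only in both DR+/+ lists lay within 10 kb of 48 members (4.84%), against 5.16% of all common regions.

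Within 5 kb of each other lay 5 pairs of members. The nearest common region was within 5 kb and itself a member for 8 of the 992 (0.806%), against 0.802% over all common regions. In the closest, 79 bp apart, chr1:44670226-44670484 measured 215 and 250 bp in DR-/- replicates 1 and 2 against 245 and 122 bp in DR+/+ replicates 1 and 2. Its neighbour chr1:44670564-44670812 measured 174 and 234 bp against 188 and 125 bp. In both, DR+/+ replicate 2 was the narrowest library, and the bp widths of the populations overlapped. In another pair, chr12:42830884-42831124 measured 241 and 204 bp against 126 and 115 bp with a gap of 33.3 points, while chr12:42828305-42828592 measured 224 and 231 bp against 247 and 165 bp.

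A few members stood on a very high background. At 3 members within chr9:3020851-3032521, singled out after their values were seen, 157 to 198 reads were stacked at the summits but the fold enrichment was only 1.52 to 1.79. Their local background exceeded 10 reads in every library, which held for 79 of the 11850 common regions, 30 of them in this first stretch of chromosome 9. The widths of the 3 differed little between populations, for example 235 and 248 bp in DR-/- replicates 1 and 2 against 237 and 227 bp in DR+/+ replicates 1 and 2 at chr9:3020851-3021098.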

How the data were processed

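ATAC-seq was read from 4 deposited peak lists, 1 per library (2 DR-/-, 2 DR+/+), grouped by title, so replicates were not pooled. Tagmentation with Tn5 ran for 30 min at 37 °C, and reads were paired-end with a length of 50 bp, per the labels' protocols. The submitters' processing notes name the mm9 build, Bowtie2 2.3.0, SAMtools 0.1.19 and FastQC 0.10.1 but no role for each. Which caller and settings gave the peaks, whether reads were shifted to the cut site, and how duplicate and multiply mapped reads were handled is not given here. For each peak the authors deposited its score, the fold enrichment (ratio) over local background and the −log10 p-value and −log10 q-value; the lowest −log10 q-value was 1.31 to 1.32 in each list. Read depth is not stated. Summit pileup and background were recovered from the fold enrichment, taken as (pileup + 1)/(background + 1), and a Poisson p-value; all common regions gave a whole-number pileup within 0.001 of the deposited −log10 p-value in each list.

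Width was the end minus the start of each peak, summed per region and list, and fold enrichment that of the peak with the smallest p-value. Python 3.11.15, pandas 2.3.3, NumPy 2.4.6, SciPy 1.17.1 and Matplotlib 3.10.9 were used, and the code was tested on simulated data. The members, gene lists and comparisons were chosen with earlier results of these data known. The regions named are the 12 with the largest gap, 2 on each side of the threshold, and others where the text says so. The gene table supplied is of another build, so the planned comparisons by gene start, gene list and GC content were not made.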

Additional observations from a re-analysis of the deposited data

Results flagged for a closer look

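The X chromosome was outside the rule, which took autosomes alone. Ranked among common regions of all chromosomes, 39 of 458 common regions of the X chromosome (8.52%, 95% Wilson interval 6.29 to 11.4%) had a gap of 10 points or more with DR-/- wider. In the other direction 61 (13.3%, 10.5 to 16.7%) had such a gap with DR+/+ wider. Among common regions of the autosomes, ranked on their own, the shares were 8.37% with DR-/- wider and 8.23% with DR+/+ wider. The share of the X chromosome with DR-/- wider was thus near that of the autosomes. Both counts were singled out because they come from regions that no comparison of the report used, and neither was tested.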

How the results depend on the processing

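The number of members depended on the threshold and on which libraries had to be apart. It was 1641 at a gap of 5 points, 347 at 20 points, 413 (7.0% of 5902 common regions) from the stronger 50% of each list, and 2245 to 2688 with any 1 of the 4 libraries left out, where fewer libraries had to be apart. The lowest of these was without DR+/+ replicate 1 and the highest without DR-/- replicate 2. In these settings the opposite direction gave 1357, 500, 401 and 2012 to 2452 regions. Merging over gaps of 500 bp gave 1033 members and the widest single peak 1089, both within 1.5 times the 992. With that merging 857 of the 992 and 11 of the 12 named regions were also chosen; the gap of chr4:3501756-3502168 fell from 51.4 to 5.54 points, below the threshold, and that of chr16:77013739-77014213 from 56.2 to 17.5. Of the 992, 377 were also chosen in the stronger 50%, and of the 12 named regions 2 were. The other named regions no longer held a peak of every list there, so their gap could not be read. With a single library left out 939 to 975 of the 992 and all 12 named regions were chosen. Leaving out a library removes a condition of the rule, so members mostly stay chosen and this does not measure stability. In bp, an alternative added after seeing the data, 674 regions had both DR-/- widths above both DR+/+ widths and 4542 the opposite.

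Replicate numbers were shared between the populations, but the difference between replicates 1 and 2 in width percentile was uncorrelated between them (r = 0.00271 over regions). The member rule did not pair the libraries by number, though this correlation cannot show that they were unpaired. The recurrence reading did group libraries by number, and the other grouping was not run. With a replicate block, requiring a difference of 10 points within each number, 1529 regions were chosen, and 1361 in the other direction.

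The share with fold enrichment percentiles apart and higher in DR-/- was 36.6% at a gap of 20 points (18.8% over all common regions), 23.2% in the stronger 50% (18.9%), 34.7% in bp (18.8%) and 43.8 to 48.1% with a library left out (33.3 to 35.3%). The median merged length was 332 bp at a gap of 5 points, 350 bp over gaps of 500 bp, 372 bp in the stronger 50%, and 296 to 310 bp with a library left out. The recurrence in the unused pair, with replicate 1 and replicate 2 choosing, was 44.6% and 50.6% at 5 points (39.6% and 45% over all common regions), 24.8% and 27.1% at 20 points (17.7% and 19.2%), and 34.1% and 39.9% in the stronger 50% (28.3% and 33.1%). It exceeded the share over all common regions in each of these, where both choices again count the same regions. The cause of these shifts was not tested. Comparisons by gene start and GC content were not run.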
